A study of Mus musculus with 6 samples.

Results

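The genes described here are 48 genes that cells need to enter mitosis, to build and check the spindle, to separate their chromosomes and to divide. They were taken by symbol from a list of names, with no threshold on their measured values, and all 48 were found among the 18152 genes of the expression table. They were measured by RNA sequencing in the inner enamel epithelium of the mandibular first molar of mouse embryos at E18.5, a cell layer cut from frozen head sections by laser capture. The control group was made up of 3 libraries from Kdf1 fl/fl embryos, which carry Kdf1 alleles flanked by loxP sites and no Cre. The GEO treatment label of these libraries is WT. The cKO group was made up of 3 libraries from K14-Cre;Kdf1 fl/fl embryos. In these embryos Cre is driven by the keratin 14 promoter in epithelia at large and not only in the tooth. Both groups therefore carry the floxed alleles and differ by Cre. The question was whether loss of Kdf1, a regulator that restrains the proliferation of epidermal progenitors, went with a change in the transcripts of dividing cells in this epithelium.

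Mitosis is driven by Cdk1 bound to cyclin B, and its end is set by the anaphase-promoting complex (APC/C), a ubiquitin ligase that the spindle checkpoint holds back until every kinetochore is attached to microtubules. Transcripts of these genes are low in G1 and rise in G2 and M phase, so in a tissue they follow the share of cells in those phases. The inner enamel epithelium of the bell-stage tooth holds dividing cells, which leave the cell cycle as they become ameloblasts. In bulk tissue, fewer dividing cells and less transcript per dividing cell cannot be told apart.

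Many promoters of this kind share 2 short elements. The CHR element, TTTGAA, is bound by the MuvB core of the DREAM complex, which represses these genes in resting cells, and by MuvB with Mybl2 and Foxm1, which activates them in G2. CCAAT boxes are bound by NF-Y. RefSeq promoters of build GRCm38.p6, each with 250 bases before the transcription start and 50 after it, were at hand for 40 of the 48 genes. On either strand, TTTGAA occurred in the promoters of 29 of these 40 genes (72.5%), against 20.2% of 27025 mouse genes. In the larger part of the 29, no whole TTTGAA lay in the 250 bases before the start. These were Anln, Aurka, Bub1b, Cdca8, Cenpa, Cenpf, Hjurp, Hmmr, Kif20b, Kif23, Kif4, Ndc80, Plk1, Racgap1 and Ttk, whose matches reached past the start. CCAAT occurred in 31 of the 40 (77.5%), against 41.1% of the mouse genes, and both occurred in 25 of the 40 (62.5%), against 7.97%. These are counts of letters, with no test and no measured binding. TTTGAA began within 30 bases before the start in 6 genes with a single listed start, and 4 of these are shown as examples with both elements close to the start. Cks1b and Ube2c, which are not shown, hold both elements there too. Ccnb2 is shown for the spacing of its 3 CCAAT boxes, whose first bases lay 21, 54 and 87 bases before the start, so that neighbours were 33 bases apart. Each line gives the 100 bases before the start, read in the direction of the gene, and capitals mark TTTGAA and CCAAT or, for matches on the other strand, TTCAAA and ATTGG.
Cdk1 (chr10:69352913-69353012, minus strand): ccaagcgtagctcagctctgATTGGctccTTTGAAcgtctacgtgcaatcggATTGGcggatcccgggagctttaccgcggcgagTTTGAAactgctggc
Top2a (chr11:99024190-99024289, minus strand): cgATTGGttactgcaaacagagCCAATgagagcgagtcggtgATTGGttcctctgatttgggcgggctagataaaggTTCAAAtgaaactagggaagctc
Kif11 (chr19:37376282-37376381, plus strand): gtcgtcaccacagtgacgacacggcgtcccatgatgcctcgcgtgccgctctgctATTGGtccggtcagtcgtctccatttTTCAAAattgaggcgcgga
Cdc20 (chr4:118437344-118437443, minus strand): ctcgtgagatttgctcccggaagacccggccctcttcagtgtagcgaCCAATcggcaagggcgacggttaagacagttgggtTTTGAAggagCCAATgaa
Ccnb2 (chr9:70421555-70421654, minus strand): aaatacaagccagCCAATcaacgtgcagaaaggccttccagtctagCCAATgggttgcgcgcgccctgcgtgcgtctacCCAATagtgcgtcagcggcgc

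The 6 libraries held between 14713918 and 16675133 estimated counts in genes after rounding. Values per library are given as CPM, counts scaled to library size with TMM factors of 0.950 to 1.03, which serve to compare a gene between libraries, and as the deposited TPM, which allows for transcript length and serves to compare genes. Kdf1 itself was at 52.5, 44.3 and 52.8 CPM in control 1, 2 and 3. It was at 0, 0.0629 and 0 CPM in cKO 1, 2 and 3, a total of 1 count, which is at least 252-fold lower than in control with a floor of 3 counts per library (edgeR, adjusted p = 0.000288). The deleted gene therefore matched the labels in every library. The labels do not say whether same-numbered libraries came from one litter, and p-values measure the spread among these 3 libraries per group.

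None of the 48 mitosis and spindle genes was called different between the groups at an adjusted p of 0.05, in edgeR or in any other fit run. By the criterion of the study, a log2 fold change of 1 or more in size and an adjusted p of at most 0.05, 0 of the 48 genes were called by the quasi-likelihood test of edgeR, against 0.432% of the 14131 genes tested. The share of all genes past this criterion depended strongly on the fit and was far larger in DESeq2, as given in the last section. At the adjusted p alone the count in edgeR was 0 of 48, against 0.545% of all genes. Without adjustment for multiple tests, 0 of the 48 were past 0.05 in edgeR, where 24.5% of all genes were, 11.6% in the direction of lower levels in cKO. DESeq2 likewise called 0 of the 48 at an adjusted p of 0.05, against 12.6% of all genes, and 0 of the 48 without adjustment, against 26.0%. limma-voom called 0 as well, with and without adjustment. The control and cKO libraries overlapped for every one of the 48 genes, while 30.7% of all genes had groups that did not overlap. The lowest adjusted p among the 48 was 0.320, for Hjurp.

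The differences were also small. Of the 48 log2 fold changes (cKO against control), 14 were above 0 and 34 below, from -0.35 for Bub1b to 0.34 for Hjurp, with a median of -0.09 beside a median of -0.00 over all genes tested. Their 95% intervals included 0 for 48 of 48 genes. All 48 intervals also lay between -1 and 1, so that a 2-fold difference in either direction was outside each of them, with interval ends between 0.539-fold and 1.77-fold. Smaller differences were not all outside. A rise to 1.5-fold was outside the interval for 39 genes and a fall by the same ratio for 23. Ccna2, Aurka, Cdc20, Hjurp, Kif20a, Nusap1, Prc1 and Anln each overlap another protein-coding gene in the annotation, and since the use of strand in the counting was not given in the sources used here, their values may hold reads of the neighbour.

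**Figure D1:**
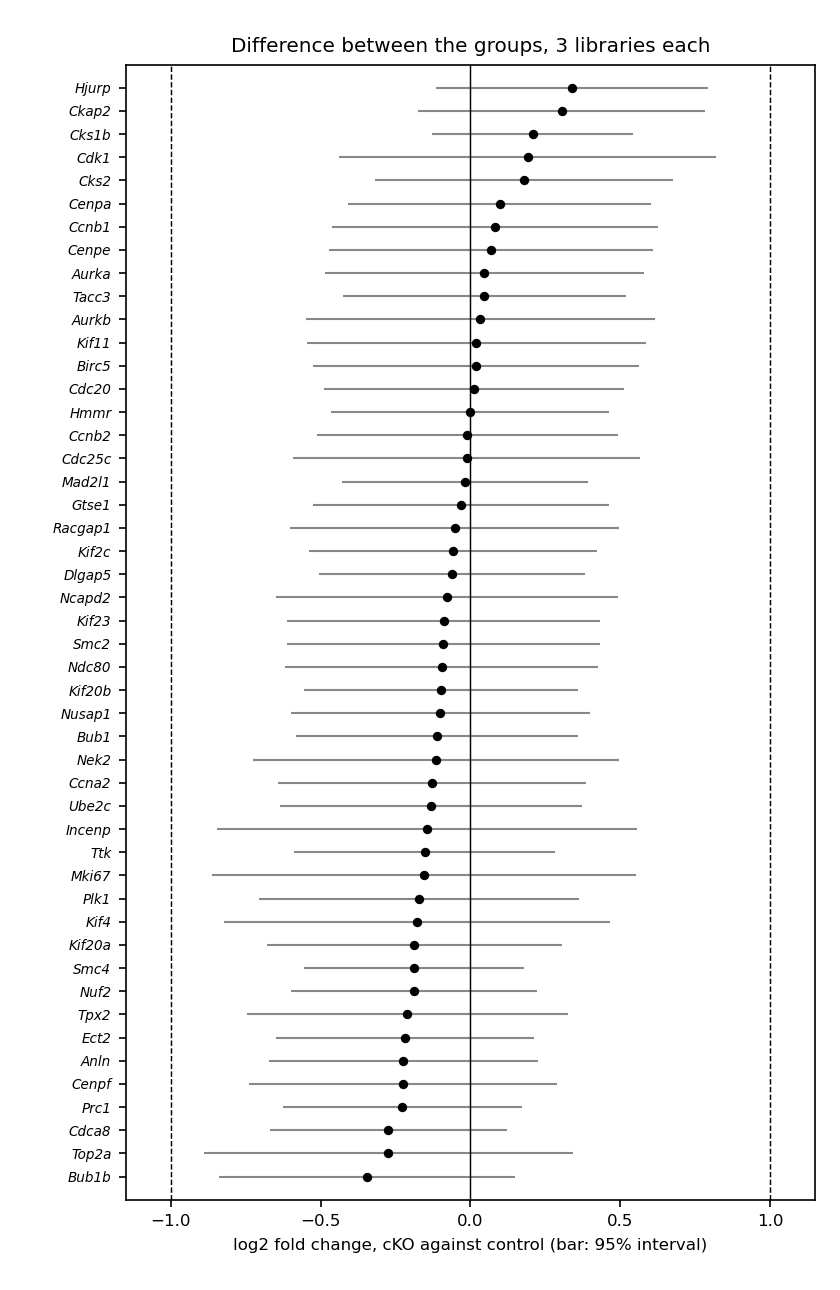
Each point is the log2 fold change of 1 gene in cKO against control (3 libraries each) with its 95% interval, sorted by value, and dashed lines mark 2-fold. All 48 intervals cross 0 and none reaches a dashed line. Values run from Bub1b at -0.35 to Hjurp at 0.34.

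By level, the genes kept nearly the same order in both groups. Ube2c, the ubiquitin-conjugating enzyme of the APC/C, was the highest, at a mean TPM of 347 ± 106 in control and 325 ± 27.5 in cKO (SD, n = 3). Cks1b (187 ± 25.9 TPM in control), Cks2 (160 ± 45.3 TPM), Birc5 (148 ± 44.0 TPM) and Cenpa (127 ± 33.6 TPM) followed, and these 5 held ranks 1 to 5 in cKO too. In control, of the steps between neighbours among these 5, only that from Ube2c to Cks1b was larger than the SDs of both genes. Kif20b was the lowest in both groups, at 10.9 ± 3.05 TPM in control and 10.6 ± 1.01 TPM in cKO. Summed over the 48 genes, the level was 3845, 3535 and 2192 TPM in control 1, 2 and 3, and 3218, 3636 and 2772 TPM in cKO 1, 2 and 3. The lowest and the highest sums both belonged to control libraries.

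**Figure D2:**
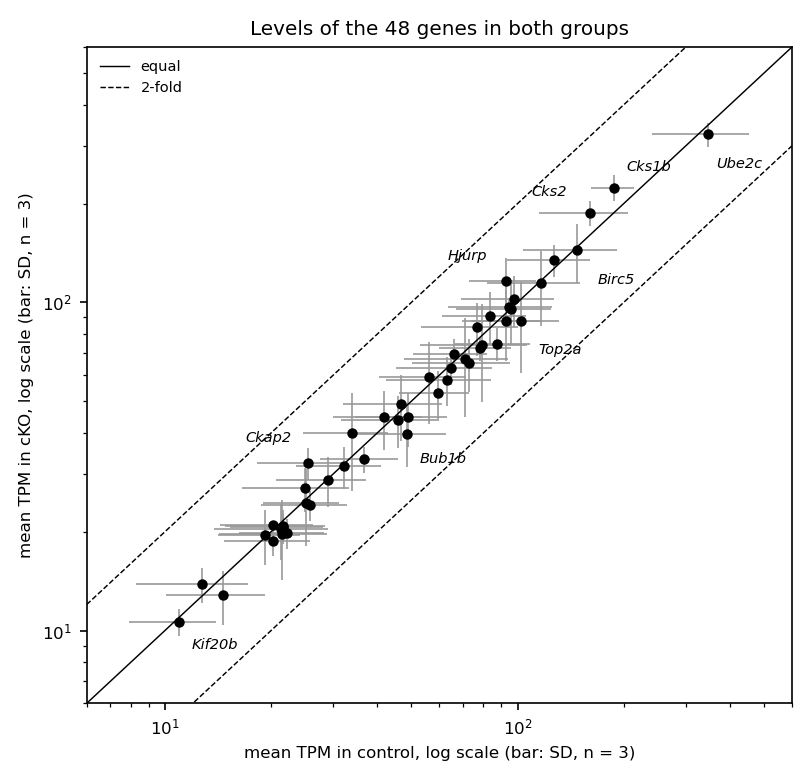
Each point is 1 of the 48 genes, with its mean TPM in control on the horizontal axis and in cKO on the vertical axis, both on log scales, and bars give the SD of 3 libraries. All points lie between the dashed lines of 2-fold difference, from Kif20b at 10.9 TPM to Ube2c at 347 TPM in control.

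The 7 genes of the Cdk1-cyclin engine had log2 fold changes between -0.13 and 0.21. Cks1b, a small subunit of the Cdk1 complex, was at 58.8, 52.9 and 48.3 CPM in control 1, 2 and 3 and at 52.0, 66.9 and 66.0 CPM in cKO 1, 2 and 3. Only cKO 2 and cKO 3 were above the highest control, and the log2 fold change was 0.21 ± 0.14 (SE), with an interval of -0.13 to 0.54 and an adjusted p of 0.406. Reads of Cks1b may be shared with its retrocopy Cks1brt, which has a row of its own. Ccna2, cyclin A, was at 192, 181 and 128 CPM in control and 136, 196 and 127 CPM in cKO, with control 3, cKO 1 and cKO 3 as the low libraries (-0.13 ± 0.22, SE). Cdk1 itself ran from 59.7 CPM in control 3 to 127 CPM in cKO 2, at a log2 fold change of 0.19 ± 0.27 (SE). Ccnb1 and Ccnb2, the B cyclins, Cdc25c, the phosphatase that activates Cdk1, and Cks2 lay between -0.01 and 0.18.

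Among the mitotic kinases, Plk1, which acts at centrosomes, kinetochores and the midbody, was at 87.8, 77.4 and 47.9 CPM in control and 66.4, 68.4 and 54.3 CPM in cKO. All 3 cKO values fell inside the control range (-0.17 ± 0.23, SE). Aurka, the centrosomal Aurora kinase that Tpx2 activates, was at 47.8, 42.2 and 29.0 CPM in control and 35.8, 50.9 and 36.1 CPM in cKO (0.05 ± 0.23, SE). Nek2, which drives centrosome separation, had a log2 fold change of -0.11 ± 0.26 (SE).

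The chromosomal passenger complex corrects faulty attachments at the centromere and then moves to the midzone. Aurkb, its kinase, was at 66.8, 60.2 and 41.3 CPM in control and 52.8, 75.3 and 44.2 CPM in cKO, with the highest library of all in cKO (0.03 ± 0.25, SE). Cdca8, the borealin subunit, was at 81.6, 70.9 and 54.1 CPM in control and 55.9, 62.2 and 52.7 CPM in cKO (-0.27 ± 0.17, SE, interval -0.67 to 0.12, adjusted p = 0.352). The cKO libraries sat in the lower part of the control range for Cdca8, with cKO 3 just under control 3. Incenp, the scaffold, and Birc5, or survivin, had log2 fold changes of -0.14 ± 0.30 and 0.02 ± 0.23 (SE).

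Bub1b, or BubR1, a part of the mitotic checkpoint complex that binds Cdc20, had the lowest log2 fold change of the 48, at -0.35 ± 0.21 (SE). It was at 116, 102 and 69.4 CPM in control 1, 2 and 3 and at 84.3, 79.2 and 62.8 CPM in cKO 1, 2 and 3. Control 1 and 2 were above all cKO libraries and control 3 lay below cKO 1 and 2, so the groups overlapped (interval -0.84 to 0.15, adjusted p = 0.347). Cdc20, the APC/C activator that Bub1b holds in check, was at 106, 89.8 and 62.03 CPM in control and 84.3, 101 and 74.4 CPM in cKO, all 3 cKO values inside the control range (0.01 ± 0.21, SE). The checkpoint genes Bub1, Ttk and Mad2l1 and the APC/C enzyme Ube2c were between -0.15 and -0.02.

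At the centromere, Hjurp, the chaperone that loads the centromeric histone Cenpa, had the highest log2 fold change of the 48, at 0.34 ± 0.19 (SE). It was at 284, 239 and 191 CPM in control 1, 2 and 3 and at 298, 356 and 248 CPM in cKO 1, 2 and 3. cKO 1 and 2 were above the highest control and cKO 3 was below it (interval -0.12 to 0.79, adjusted p = 0.320). Cenpa, whose protein Hjurp delivers, was at 0.10 ± 0.22 (SE). Nuf2, of the Ndc80 complex that grips microtubules, was at 54.4, 49.7 and 35.9 CPM in control and 38.5, 44.99 and 39.2 CPM in cKO (-0.19 ± 0.17, SE). Cenpf, a large kinetochore protein, was at 106, 95.3 and 60.7 CPM in control and 78.5, 82.4 and 63.1 CPM in cKO (-0.23 ± 0.22, SE). For both, control 1 and 2 were the highest and control 3 the lowest of the 6 libraries. Ndc80 was at -0.10 ± 0.22 and the kinetochore motor Cenpe at 0.07 ± 0.23 (log2 fold change, SE).

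The mitotic kinesins, motors that slide or depolymerise microtubules, ran from -0.19 to 0.02. Kif11, or Eg5, which pushes the spindle poles apart, was at 153, 131 and 86.4 CPM in control and 120.3, 154 and 101 CPM in cKO (0.02 ± 0.24, SE). Kif20a, which works in the midzone at cytokinesis, was at 108, 99.2 and 65.3 CPM in control and 83.3, 89.4 and 66.8 CPM in cKO (-0.19 ± 0.21, SE). In both genes cKO 3 was the lowest of its group and control 3 the lowest of all. Kif20b, Kif23, Kif2c and Kif4 lay between these 2 in log2 fold change.

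Ckap2, a microtubule-associated protein of the spindle, was at 42.4, 35.8 and 25.4 CPM in control 1, 2 and 3 and at 38.5, 48.5 and 40.9 CPM in cKO 1, 2 and 3. Control 3 was below the other 5 libraries, and the log2 fold change of 0.30 ± 0.20 (SE) had an interval of -0.17 to 0.78 (adjusted p = 0.395). Tpx2, which nucleates microtubules near chromosomes, was at 164, 136 and 90.0 CPM in control and 117, 126 and 94.5 CPM in cKO, all 3 cKO values inside the control range (-0.21 ± 0.23, SE). The other spindle proteins, Nusap1, Hmmr, Tacc3, Gtse1 and Dlgap5, lay between -0.10 and 0.05 in log2 fold change. Hmmr, a microtubule-binding protein also known as RHAMM, came closest to 0 of all 48 genes, at 52.8, 44.6 and 31.0 CPM in control and 39.9, 43.5 and 44.8 CPM in cKO.

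The 4 cytokinesis genes were all below 0 in log2 fold change, between -0.23 and -0.05, and none was past 0.05 in edgeR with all libraries, with or without adjustment. Prc1, which bundles the midzone microtubules, was at 111, 94.9 and 76.5 CPM in control and 81.3, 90.7 and 69.5 CPM in cKO (-0.23 ± 0.17, SE, adjusted p = 0.445). Ect2, the exchange factor that activates RhoA at the cleavage furrow, was at 57.0, 52.1 and 35.9 CPM in control and 41.8, 44.0 and 38.8 CPM in cKO (-0.22 ± 0.18, SE). Anln, or anillin, the scaffold of the contractile ring, was at 69.4, 65.8 and 44.9 CPM in control and 50.9, 58.4 and 44.9 CPM in cKO (-0.22 ± 0.19, SE). For these 3, control 1 and control 2 were above every cKO library, while control 3 was below cKO 1 and 2. Racgap1, of the centralspindlin complex, was at 184, 155 and 106 CPM in control and 138, 176 and 116 CPM in cKO (-0.05 ± 0.23, SE).

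Of the genes of mitotic chromosome structure, Top2a, the topoisomerase that untangles sister chromatids, was at 352, 314 and 216 CPM in control and 241, 316 and 172 CPM in cKO. Its lowest library was cKO 3 and its highest control 1, with the groups interleaved between them (-0.27 ± 0.26, SE). Ncapd2, a condensin subunit, was at 344, 303 and 203 CPM in control and 286, 317 and 201 CPM in cKO (-0.08 ± 0.24, SE), so that each group had 1 low library, replicate 3. Smc4, the condensin ATPase, was at 183, 189 and 136 CPM in control and 136, 166 and 144 CPM in cKO (-0.19 ± 0.16, SE). Mki67, the proliferation marker Ki-67 that coats mitotic chromosomes, was at 521, 432 and 278 CPM in control 1, 2 and 3 and at 394, 467 and 244 CPM in cKO 1, 2 and 3. Both groups thus held a library with a low Mki67 level, and its log2 fold change was -0.15 ± 0.30 (SE).

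The spread within groups was shared by nearly all of the genes. Control 3 was the lowest control library for 48 of 48 genes, and control 1 was above control 2 and control 2 above control 3 for 47 of them, Smc4 being the exception. From control 1 to control 3 the CPM ratio had a median of 1.68 and ran from 1.22 for Cks1b to 1.97 for Nek2. Over all 6 libraries, the highest value was in control 1 for 34 genes and in cKO 2 for 12, and the lowest was in control 3 for 38 and in cKO 3 for 9. Set against each gene's mean over the 6 libraries, the median gene stood at 0.33, 0.16 and -0.41 in control 1, 2 and 3 and at -0.05, 0.18 and -0.21 in cKO 1, 2 and 3, in log2 CPM. The span between control 1 and control 3 was thus larger than any of the 48 differences between the groups. The median SD of log2 CPM was 0.39 within control and 0.22 within cKO, while over all genes it was 0.17 within control and 0.27 within cKO.

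**Figure D3:**
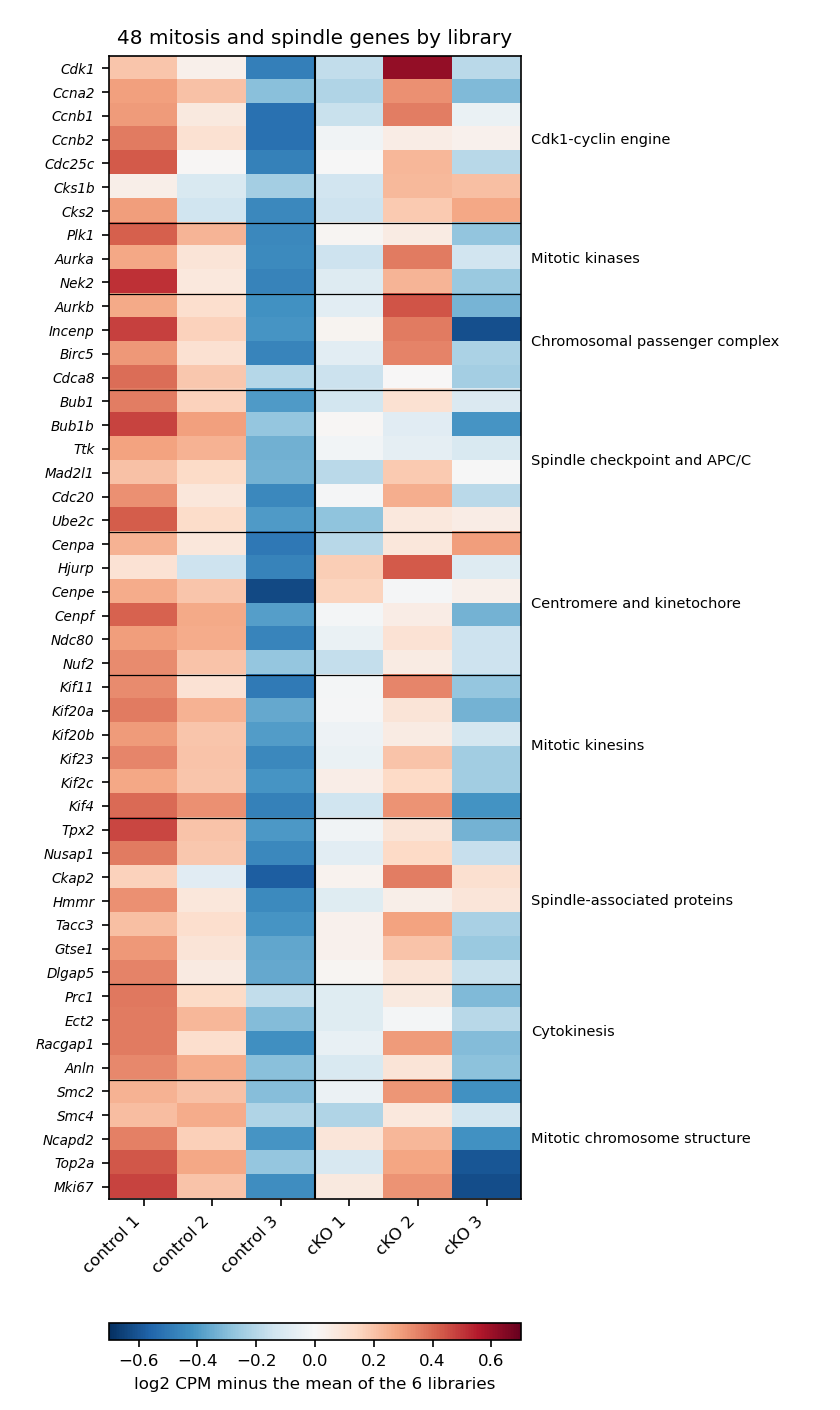
Rows are the 48 genes, grouped by role, and columns the 6 libraries, with colour for log2 CPM minus the gene's mean over the 6 libraries (red higher, blue lower). Control 1 is red and control 3 blue in nearly every row, at medians of 0.33 and -0.41, and the cKO columns lie between them at -0.05, 0.18 and -0.21.

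The direction of the small differences changed with the library left out. Without control 3 the median log2 fold change of the 48 was -0.27, and 7 of them were past an unadjusted p of 0.05, all lower in cKO, against 6.66% of all genes tested in that direction. The 7 were Bub1b, Cdca8, Ect2, Cenpf, Anln, Nuf2 and Plk1, and none was past 0.05 after adjustment. Without control 1 the median was 0.08, without control 2 it was -0.03, without cKO 2 it was -0.16, and without cKO 3 it was 0.01. In these 4 fits and in the fit without cKO 1 (median -0.06), 0 or 1 of the 48 were past the unadjusted threshold. With 1 library left out at a time, 31 of the 48 genes changed sign at least once. Hjurp, Ckap2, Cks1b and Cks2 stayed above 0 throughout, and 13 genes, among them Bub1b, Cdca8, Top2a and Prc1, stayed below 0.

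Read as pairs, same-numbered libraries gave opposite pictures. In pair 1, 47 of the 48 genes were lower in cKO, with Hjurp as the exception, at a median log2 ratio of -0.40. In pair 2, 25 genes were higher in cKO (median 0.01), and in pair 3, 39 were higher (median 0.20). Only Hjurp was higher in all 3 pairs, and Cdca8, Bub1b and Prc1 were lower in all 3. With the replicate number as a block, edgeR called 0 of the 48 at an adjusted p of 0.05, against 9.87% of all genes. Without adjustment it called 2 of the 48, against 29.3% of all genes, namely Bub1b (log2 fold change -0.33 ± 0.12, adjusted p = 0.133) and Hjurp (0.34 ± 0.14, adjusted p = 0.167).

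A further 69 genes of mitosis, such as other kinetochore, centrosome and tubulin genes, followed the same libraries. Their median deviations were 0.26, 0.15 and -0.32 in control 1, 2 and 3 and -0.10, 0.19 and -0.18 in cKO 1, 2 and 3. None of the 69 was past an adjusted p of 0.05 in edgeR. Without adjustment 6 of the 69 were lower in cKO, against 11.6% of all genes in that direction, and none was higher. The 6 were Kntc1, Kpna2, Lmnb1, Mad1l1, Mis12 and Tubg1, and the median over the 69 was -0.06 (log2 fold change). DESeq2 called Kpna2, Lmnb1, Mad1l1 and Tubg1 as lower at an adjusted p of 0.05, where it called 742 of all 14131 genes as lower. The fit with the replicate block called Kpna2 alone, where it called 627 of all genes as lower. The extremes were Kntc1, of the complex that recruits the checkpoint to kinetochores, at -0.65 ± 0.25 (SE), and Sgo2a, a protector of centromeric cohesion, at 0.30 ± 0.33 (SE).

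A list of 15 APC/C genes, made up of its core subunits, which are needed outside mitosis too, and the activator Fzr1, had a narrower spread. Their median deviation from the mean lay between -0.10 and 0.07 in all 6 libraries, and their median log2 fold change was -0.02, from Anapc13 at -0.36 ± 0.20 to Cdc27 at 0.18 ± 0.11 (SE). None passed an adjusted p of 0.05 in edgeR, and without adjustment Anapc1 alone did, lower in cKO, against 11.6% of all genes in that direction. The 27 S phase genes had another pattern, with medians of 0.32, 0.22 and -0.06 in control and -0.25, 0.38 and -0.70 in cKO, so that cKO 3 rather than control 3 was their lowest library. Of these 27, 26 were below 0 in log2 fold change at a median of -0.28, from Cdc6, a replication licensing factor, at -0.84 ± 0.34 to its partner Cdt1 at 0.04 ± 0.37 (SE). None was past an adjusted p of 0.05 in edgeR, with the block or in DESeq2. Without adjustment 2 of the 27, Cdc6 and Pola1, were lower in edgeR, against 11.6% of all genes in that direction. The difference between the S phase list and the mitosis list was not tested.

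**Figure D4:**
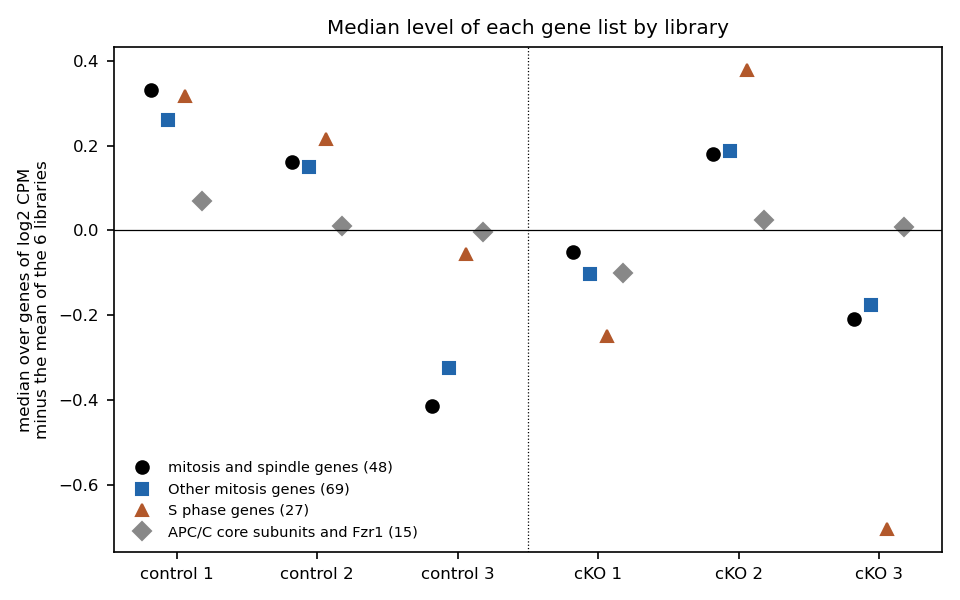
For each library, symbols give the median over the genes of a list of log2 CPM minus the mean of the 6 libraries, for the 48 genes, 69 other mitosis genes, 27 S phase genes and 15 APC/C genes (core subunits and Fzr1). The 48 and the 69 move together, lowest in control 3 (-0.41 and -0.32), the S phase genes are lowest in cKO 3 (-0.70), and the APC/C genes stay between -0.10 and 0.07.

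Among the regulators of these promoters, Foxm1, the activator in G2, was at 165, 139 and 92.2 CPM in control 1, 2 and 3 and at 126, 158 and 81.3 CPM in cKO 1, 2 and 3, overlapping like its targets (-0.12 ± 0.29, SE). Mybl2, which joins MuvB in S phase, was at -0.43 ± 0.35, E2f1, an activator of S phase genes, at -0.03 ± 0.41, E2f4, the E2F factor of DREAM, at -0.03 ± 0.11, and Trp53 at 0.12 ± 0.13 (log2 fold change, SE). Foxm1, Mybl2 and E2f1 were each lowest in cKO 3. Cdkn1a, or p21, the CDK inhibitor through which Trp53 leads to repression by DREAM, was at 173, 343 and 536 CPM in control 1, 2 and 3 and at 98.6, 145 and 304 CPM in cKO 1, 2 and 3. It was highest in the library of each group in which the summed level of the 48 genes was lowest. From cKO 1 to cKO 2, however, Cdkn1a and that sum (3218 and 3636 TPM) both rose, and a link between them was not tested. Cdkn1a was lower in cKO in every pair. Its log2 fold change of -0.94 ± 0.51 did not pass in edgeR (adjusted p = 0.300) or DESeq2 (adjusted p = 0.188) and did with the replicate block (adjusted p = 0.0146). Of the 16 regulators on the list, the highest was Rbl2, the DREAM pocket protein p130, at 0.24 ± 0.14 (SE), and none but Cdkn1a passed an adjusted p in these fits. Without adjustment 1 of the 16, Nfya, was lower in cKO in edgeR, against 11.6% of all genes in that direction. The NF-Y genes Nfya, Nfyb and Nfyc were at -0.37 ± 0.15 (adjusted p = 0.188), -0.17 ± 0.15 and -0.05 ± 0.11 (log2 fold change, SE).

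A list of 7 genes that regulate mitotic entry and the G2 checkpoint holds brakes and activators alike. Their log2 fold changes lay between -0.27 for Cdc25a, a phosphatase, and 0.08 for Wee1, the kinase that holds Cdk1 inactive. None was past 0.05 in edgeR, with the block or in DESeq2, with or without adjustment. Of the 11 G1 cyclins and CDK inhibitors tested, 0 passed an adjusted p of 0.05 in edgeR. Without adjustment 2 were higher and 2 lower in cKO in edgeR, against 24.5% of all genes in either direction. With the replicate block 3 were higher and 2 lower without adjustment, against 29.3% of all genes. The extremes were Cdkn2b (p15) at -1.43 ± 0.52 and Cdkn1c (p57) at 0.90 ± 0.31 (SE). DESeq2 called 2 of the 11, against 12.6% of all genes, namely Cdkn1c as higher (adjusted p = 0.0428) and Ccnd1, cyclin D1, as lower (adjusted p = 0.00934). The replicate block left Ccnd1 alone past 0.05 (adjusted p = 0.0348), against 9.87% of all genes.

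Markers of other cells differed between these libraries, and their part in the values above was not tested. The marker lists were chosen with earlier results of these data known, so their counts are descriptions only. Of all genes tested in edgeR, 0.545% were past an adjusted p of 0.05 and 24.5% were past 0.05 without adjustment, in either direction. Of 10 markers of neutrophil precursors, the filter on low counts kept 7, and 5 of these were higher in cKO at an adjusted p of 0.05. The summed level of the list was 20.1 to 26.3 TPM in control and 155 to 409.9 TPM in cKO, highest in cKO 1 and led by S100a9. Of 14 markers of dental papilla and odontoblasts, 10 were higher and 1 lower without adjustment, with sums of 1824 to 8749.95 TPM in control and 4557 to 5859 TPM in cKO, led by Col1a1. The 10 immune markers summed to 75.0 to 169.9 TPM in control and 169 to 545 TPM in cKO (led by Fcer1g, 7 higher without adjustment), and the 9 endothelial markers to 194 to 260.2 TPM and 243 to 729 TPM (led by Cdh5, 5 higher). Erythroid markers summed to 4372 to 6647 TPM in control and 4463 to 7202 TPM in cKO, led by Hba-a1, with 0 of 8 past either threshold. The 12 markers of dental epithelium, the labelled tissue, were all present, with sums of 16516 to 48099 TPM in control and 6135 to 10308 TPM in cKO, and 8 were lower in cKO in edgeR without adjustment. At an adjusted p of 0.05 the epithelial markers lower in cKO were 1 in edgeR, 7 in DESeq2 and 8 with the replicate block. The papilla markers higher in cKO were 1, 8 and 8, and the immune markers higher in cKO were 0, 6 and 1. Over all genes these 3 fits called 0.545%, 12.6% and 9.87% in either direction. The most abundant epithelial marker, Amelx, the enamel matrix gene of ameloblasts, was at 4017, 15804.5 and 32209 TPM in control 1, 2 and 3. The whole epithelial list summed to 16516, 26612 and 48099 TPM in these libraries, so its sum depends strongly on Amelx. In cKO 1, 2 and 3 Amelx was at 9.45, 173 and 699 TPM. Whether the amount of epithelium differed between the groups was not tested. Within each group Amelx was highest in the library in which the 48 genes summed lowest. From cKO 1 to cKO 2, however, Amelx and that sum both rose, and a link between them was not tested. Of the remaining lists, chondrocyte and osteoblast markers had 4 higher and 2 lower of 8 in edgeR without adjustment (led by Alpl). At an adjusted p of 0.05 they had 0 higher and 1 lower in edgeR, 4 and 2 in DESeq2, and 2 and 2 with the block. Without adjustment in edgeR, Schwann and neural markers had 1 higher and 1 lower of 4 (led by Tubb3). Skeletal muscle markers had 2 and 0 of 3 (led by Tnnt1), with sums of at most 12.2 TPM.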

How the data were processed

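Laser-captured inner enamel epithelium of E18.5 mandibular first molars was sequenced in 6 libraries, 3 control and 3 cKO. The authors extracted RNA with TRIzol, prepared libraries with a TruSeq RNA kit and deposited estimated counts per gene beside FPKM and TPM values and group averages of each. The submitters' processing notes name BWA 0.7.12, Picard 2.6.0 and StringTie, and the role of each, the genome build and the use of strand were not given in the sources used here. FPKM values and averages were not used.

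Estimated counts were rounded (14713918 to 16675133 per library), filtered with filterByExpr, scaled by TMM and tested with the robust quasi-likelihood F-test of edgeR 4.0.16 (R 4.3.3), two-sided, with Benjamini-Hochberg adjustment over all 14131 genes kept. Deviations by library used log2(CPM + 0.1), and the floor of 3 counts covers counting error only. The fits were also run on simulated counts, with genes drawn independently and the same dispersion for all. That simulation held no shift shared by the genes of a library, so it does not cover this feature of the data. Replicate numbers come from the titles. Deviations of same-numbered libraries from their group means correlated across genes (r = 0.135, 0.324 and 0.499), so the numbers were read as pairs for a fit with replicate block. The pairing is weak, since control 2 with cKO 1 gave r = 0.144, and over the 48 genes alone r was -0.044 for the pair numbered 2 and 0.303 for control 2 with cKO 1. The alternatives were DESeq2 1.42.0, limma 3.58.1 (voom, and log2(TPM + 1) or log2(TPM + 0.1)), other scalings and filters, no robust option, and leaving out each library.

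The 48 genes and all lists were chosen with earlier results of these data known. Values per library are given for the highest and lowest log2 fold change in each role and the 10 lowest p. Outside the 48, the genes named by rule are Kdf1, Foxm1, Mybl2, E2f1, E2f4, Cdkn1a, Trp53, the highest and lowest of each list, and the most abundant marker. Per-library values of Cdk1, Mki67 and Hmmr, and other genes called in a list, were added after their values were seen.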

Additional observations from a re-analysis of the deposited data

How the results depend on the processing

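The counts of 0 among the 48 genes, by the criterion and at the adjusted p alone, held under all 11 other settings, with each library left out and at an adjusted p of 0.1. At an unadjusted p of 0.05 the count was 2 with the replicate block and 0 to 7 with 1 library left out. The median log2 fold change of the 48 lay between -0.10 and -0.00 under the other settings and between -0.27 and 0.08 with 1 library left out. Of 816 single values of these genes, 5 moved by more than their SE and none crossed the adjusted threshold. Another scaling changed the sign of 5 genes, all near 0. Kdf1 stayed past the threshold under every setting that kept it, and the stricter filter (10 counts or more in each library) drops it. The count of all genes past the criterion was unstable: 61 in edgeR, 980 in DESeq2, 7 with DESeq2 size factors, 9 with library size alone, 103 without a filter, 6 with the stricter filter, 6 in limma-voom, 860 with the replicate block, 16 on log2(TPM + 1), 669 at an adjusted p of 0.1, and 1 to 465 with 1 library left out. The cause was not tested. The block moved the calls of Cdkn1a, Ccnd1 and Kpna2 past the adjusted threshold, as given with their values, and of none of the 48 genes. The precision that 3 libraries per group give for each of the 48 genes is shown by its interval.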
